A study of Schmidtea mediterranea with 6 samples.

Results

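The basement membrane collagens of the planarian *Schmidtea mediterranea* described here are 6 contigs, assembled transcripts that stand for genes: *col4-1*, *col4-2*, *col4-3*, and *col4-4*, which encode type IV collagen chains, and *mp-1* and *mp-3*, which encode multiplexins. They were chosen by their names in the study's matrisome list, with no measured value in the rule. Earlier results of these data were known when the choice was made. The members are 6 of the 28742 contigs of the count table. The same list names further members of both families, and names alone do not account for leaving these out of the 6. They are described beside the members.

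The RNA came from asexual animals of the CIW4 strain that had eaten liver carrying double-stranded RNA 4 times over 13 days. In *hmcn-1(RNAi)* animals the RNA was directed against *hmcn-1*, which encodes hemicentin-1, a large glycoprotein of the extracellular matrix (ECM). In control animals it was directed against *unc-22*, a *Caenorhabditis elegans* gene. There were 3 poly(A) RNA libraries per condition, each from 5 pooled tail fragments, so each value is an average over animals and over every cell type of the tail, and a lower value in such bulk RNA cannot tell fewer cells of a type from less RNA per cell. The comparison asks how the transcripts of basement membrane collagens stood in tails after *hmcn-1* had been knocked down.

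Basement membranes are thin sheets of ECM that underlie epithelia and wrap muscle. Type IV collagen chains join in threes, and the trimers link at their ends into a network, while laminins form a separate network and nidogen and heparan sulfate proteoglycans such as perlecan and agrin bridge the sheets. Multiplexins, the family of vertebrate collagens XV and XVIII, carry a triple helix with many interruptions and sit at the border between the basement membrane and the fibrillar matrix. In the triple helix glycine recurs at every 3 residues, and its codons all start with GG, so that coding sequence for the helix repeats GG at a spacing of 9 bases.

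Many of the study's cloning primers hold this repeat, and they tie each name to its contig, since all 6 primer entries carry the same contig number as the member's row in the count table. For *mp-3* the row used here, dd_Smed_v6_3516_1_1, has the number given in both the matrisome and the primer list, while the link in the matrisome list points to dd_Smed_v6_3516_0_1. The inner forward and the reverse primer of each member are printed 5′ to 3′ because they bound the stretch of each transcript that the study cloned. Capitals mark codons of the form GGN that recur 9 bases apart, or their complement NCC in the reverse primers.
*col4-1* inner forward: gaagctgaaaagattcctggag
*col4-1* reverse: cggaacACCaggtggACC
*col4-2* inner forward: tGGTgatgctGGAgatgaaGG
*col4-2* reverse: ttgaacACCgggctcACC
*col4-3* inner forward: tGGTgataaaGGTccaaagGGG
*col4-3* reverse: acacaaacccgacacctgg
*col4-4* inner forward: GGCtcaaaaGGGtttaagGGG
*col4-4* reverse: ACCcttgatGCCgactgc
*mp-1* inner forward: ccatattttccccattggtaccc
*mp-1* reverse: catgcTCCtggctcACCc
*mp-3* inner forward: accttgcaacaaaccacaac
*mp-3* reverse: acggacctcgctcattaacg
The motif searched was GGNNNNNNNGG, read as its complement in reverse primers, and it was present in 7 of these 12 primers. All 4 type IV members had it in at least 1 printed primer, *mp-1* had it in its reverse primer, and the printed primers of *mp-3* did not hold it. Over the study's whole primer list it was found in 40 of 57 primers (70.2%) for 19 collagen genes and in 5 of 45 (11.1%) for 15 other genes, and on either strand in 44 and 5. A match describes these letters and not a reading frame, which the primer list does not give.

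Library totals lay between 6374450 and 11887127 reads, and 10253 to 17611 of them per library fell on the 6 members. This was 0.161% to 0.171% of the reads in control libraries and 0.143% to 0.148% in *hmcn-1(RNAi)* libraries. The target was reduced as labelled, with the contig of *hmcn-1* at 204 to 206 CPM in the control libraries and 16.7 to 18.5 CPM in the *hmcn-1(RNAi)* libraries. CPM here are counts relative to the library total after TMM scaling, and since contig length does not enter them, levels are compared between libraries and not between genes. Every pair of libraries differed beyond counting noise, at a chi-square of 2.07 to 7.98 per degree of freedom in 15 pairs, and control replicate 1 stood farthest from the other 2 controls, so results are also given without it. Nothing in the labels says whether the tails of a condition came from separate cultures or feedings, so p-values measure only the spread between these libraries.

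All 6 members had a lower mean level in *hmcn-1(RNAi)* tails, by a small amount. In each of them every *hmcn-1(RNAi)* library lay below every control library. The 4 type IV chains among them stood at 86.4% to 89.8% of the control level and the 2 multiplexins at 88.3% and 92.0%. Outside the 6, 2 further members of the families were tested. In 1 of them the conditions did not overlap either, and in the other, *mp-2*, they overlapped. Of the 6, *col4-1*, *col4-2*, and *col4-3* passed the test across all contigs (quasi-likelihood test in edgeR, Benjamini-Hochberg adjustment over 15333 contigs, called at an adjusted p under 0.05), while *col4-4*, *mp-1*, and *mp-3* did not. Over the same 15333 contigs, 0.613% were called lower and 0.515% higher, and 7.78% had all *hmcn-1(RNAi)* libraries below all controls and 7.81% all above. Among the 5859 contigs at least as high in mean CPM as the lowest member, these shares were 1.52% and 10.6%. Without control replicate 1 the same 3 members were called, and 1 was called without control replicate 3 or without *hmcn-1(RNAi)* replicate 1, *col4-2* in both cases. All 6 members passed the filter on low counts, and all did so with at least 196 reads in every library.

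**Figure D1:**
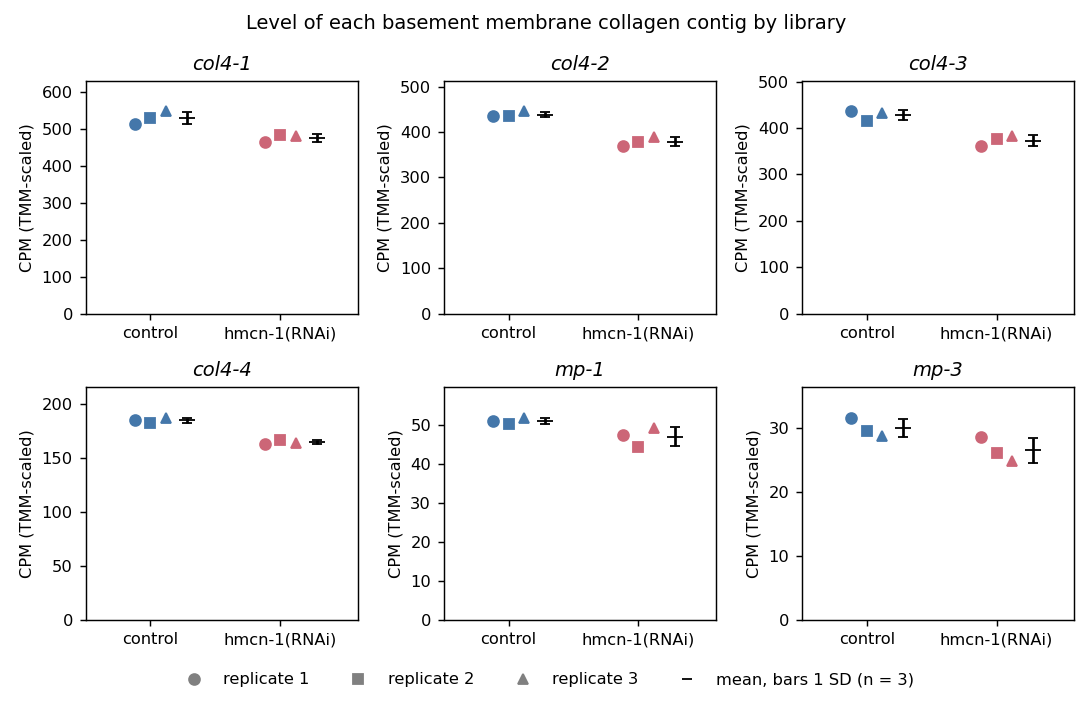
TMM-scaled CPM (y axis, from 0) of the 6 basement membrane collagen contigs in the 3 control and 3 *hmcn-1(RNAi)* libraries, with symbols for replicate numbers and black bars for the mean and 1 SD. In every panel the 3 *hmcn-1(RNAi)* libraries sit below the 3 controls. For *col4-2* the controls were at 435, 435, and 446 CPM and the *hmcn-1(RNAi)* libraries at 369, 379, and 389 CPM.

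The type IV chains are the building blocks of the collagen network. *col4-2* (dd_Smed_v6_2197_0_1) was at 435, 435, and 446 CPM in the control libraries and at 369, 379, and 389 CPM in the *hmcn-1(RNAi)* libraries. The conditions were 46.1 CPM apart at their nearest libraries, against an SD of 6.10 CPM among controls and 9.74 CPM among *hmcn-1(RNAi)* libraries (n = 3 each). Its level fell by 13.6%, which is -0.21 on the log2 scale with a standard error of 0.0398 (adjusted p = 0.00291, edgeR, Benjamini-Hochberg). It was called without any 1 of the 6 libraries, with an adjusted p between 0.00113 and 0.0463 (edgeR, Benjamini-Hochberg).

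*col4-3* (dd_Smed_v6_2337_0_1) was at 435.7, 415, and 433 CPM in the control libraries and at 360, 376, and 382 CPM in the *hmcn-1(RNAi)* libraries. The lowest control, replicate 2, stood 32.9 CPM above the highest *hmcn-1(RNAi)* library, replicate 3. The level fell by 12.9%, with a log2 fold change of -0.20 and a standard error of 0.0407 (adjusted p = 0.00629, edgeR, Benjamini-Hochberg). Its call was lost without control replicate 3 (adjusted p = 0.0655) and without *hmcn-1(RNAi)* replicate 1 (adjusted p = 0.0958, edgeR, Benjamini-Hochberg), and it was held without any other single library.

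*col4-1* (dd_Smed_v6_1579_0_1), the type IV chain with the most reads, was at 514, 529, and 547 CPM in the control libraries and at 463, 483, and 481 CPM in the *hmcn-1(RNAi)* libraries. Its control libraries were more spread than those of *col4-2*, with an SD of 16.8 CPM, and control replicate 1 was the lowest of them. The level fell by 10.2%, with a log2 fold change of -0.16, a standard error of 0.0398 and a 95% interval from -0.24 to -0.074 (adjusted p = 0.0433, edgeR, Benjamini-Hochberg). This call sat close to the threshold. It was kept only without control replicate 1 (adjusted p = 0.00867) and lost without control replicate 2 (0.0903), control replicate 3 (0.261), or *hmcn-1(RNAi)* replicate 1 (0.292), 2 (0.0812), or 3 (0.141), all from edgeR with Benjamini-Hochberg adjustment.

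*col4-4* (dd_Smed_v6_2500_0_1) was the most even of the members, at 185, 182, and 187 CPM in the control libraries and at 163, 167, and 164 CPM in the *hmcn-1(RNAi)* libraries. The spread within a condition, 1.33% and 1.09% of the mean, was less than the 2.58% that counting alone gives at its depth. Its log2 fold change was -0.17 with a standard error of 0.0448 and a 95% interval from -0.26 to -0.077, which is nearly that of *col4-1*, but its adjusted p was 0.0537 (edgeR, Benjamini-Hochberg), just outside the call. *col4-4* and *col4-1* thus fell on either side of the threshold with similar changes. The log2 ratio of *col4-1* to *col4-4* moved by 0.014 between conditions, and the libraries overlapped (exact permutation test, two-sided, p = 0.6).

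The multiplexins had far fewer reads. *mp-1* (dd_Smed_v6_6811_0_1) was at 50.9, 50.2, and 51.8 CPM in the control libraries and at 47.3, 44.3, and 49.1 CPM in the *hmcn-1(RNAi)* libraries. The nearest libraries of the conditions were 1.10 CPM apart. The log2 fold change was -0.12 with a standard error of 0.0665, and its 95% interval ran from -0.25 to 0.018 (adjusted p = 0.554, edgeR, Benjamini-Hochberg).

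*mp-3* (dd_Smed_v6_3516_1_1) was at 31.6, 29.5, and 28.7 CPM in the control libraries and at 28.5, 26.0, and 24.8 CPM in the *hmcn-1(RNAi)* libraries. Here the conditions nearly touched, since control replicate 3 exceeded *hmcn-1(RNAi)* replicate 1 by only 0.204 CPM. The log2 fold change was -0.18 with a standard error of 0.0871 (adjusted p = 0.441, edgeR, Benjamini-Hochberg). At 196 to 293 reads per library, counting alone gives a spread of 6.45%. The interval for *mp-3*, -22.0% to -0.27% relative to control, contains the changes of all 4 type IV chains, as does the interval for *mp-1*.

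**Figure D2:**
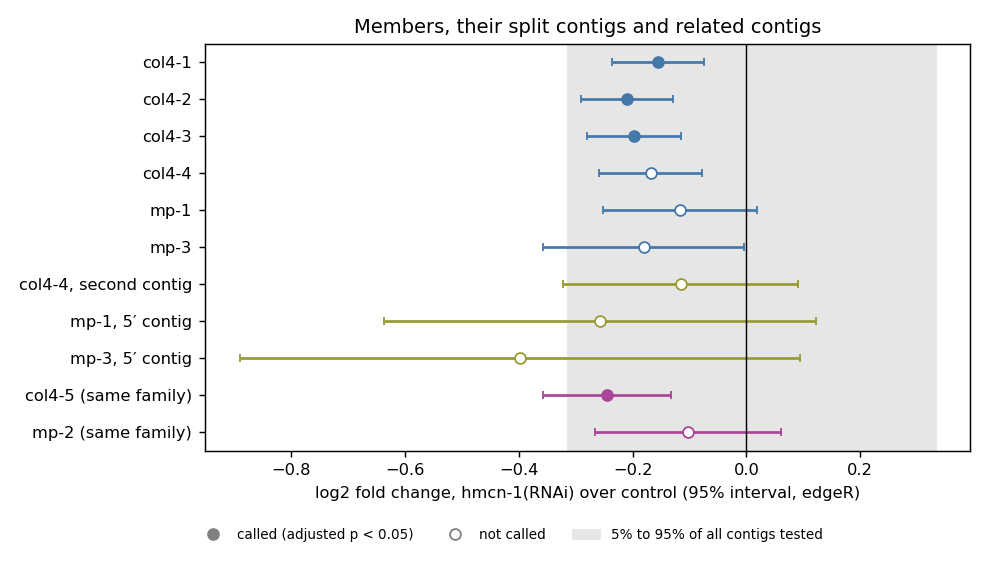
Log2 fold change of *hmcn-1(RNAi)* over control (x axis) with its 95% interval from edgeR, for the 6 members (blue), the other contigs of *col4-4*, *mp-1*, and *mp-3* (olive), and *col4-5* and *mp-2* (purple). Filled points were called, and all 11 points lie below 0, inside or next to the grey band that holds 5% to 95% of all contigs tested (-0.31 to 0.33), with the *mp-3* 5′ contig at -0.40 outside it.

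The median log2 fold change over all contigs tested was near 0, with quartiles at -0.092 and 0.096, so all 6 members lay below the lower quartile and 9.84% of all contigs had a log2 fold change at or below that of *col4-2*. For *col4-1* this share was 14.9%. In a test against a change of at least 1.2-fold none of the 6 was called (glmTreat in edgeR, adjusted p = 1 for each, Benjamini-Hochberg). Every estimated change of the 6 was smaller than 1.2-fold, so this test could not have called any of them.

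Reads of 3 of the genes were split over a second contig, which gives a separate count of the same gene. The second contig of *col4-4* (dd_Smed_v6_3747_0_1) was at 20.3, 19.6, and 22.0 CPM in control and 19.4, 17.2, and 20.2 CPM in *hmcn-1(RNAi)* libraries, with a change of -0.12 on the log2 scale (adjusted p = 0.746, edgeR, Benjamini-Hochberg) and overlapping conditions. The 5′ contig of *mp-1* (dd_Smed_v6_13518_0_1) was at 5.32, 5.15, and 6.79 CPM in control and 4.80, 5.10, and 4.65 CPM in *hmcn-1(RNAi)* libraries, and that of *mp-3* (dd_Smed_v6_14517_0_1) at 4.35, 3.98, and 3.40 CPM against 3.28, 3.67, and 2.11 CPM. Their log2 fold changes were -0.26 and -0.40, neither was called (adjusted p = 0.673 and 0.589, edgeR, Benjamini-Hochberg), and the conditions overlapped for *mp-3* but not for *mp-1*. All 3 values had the same sign as the member. Adding these reads to the members, an alternative chosen after the values were seen, gave log2 fold changes of -0.16 for *col4-4* (adjusted p = 0.0562), -0.13 for *mp-1* (0.448), and -0.20 for *mp-3* (0.339), and changed no call (edgeR, Benjamini-Hochberg).

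Both families have further members in planarians. *col4-5*, the remaining clear type IV chain of the study's list, was at 99.2, 90.7, and 96.7 CPM in control and 80.7, 82.7, and 78.2 CPM in *hmcn-1(RNAi)* libraries. It fell by 15.7%, with a log2 fold change of -0.25 (standard error 0.0555, adjusted p = 0.0169, edgeR, Benjamini-Hochberg), and the conditions did not overlap. Its call was lost without control replicate 3 (0.111) or *hmcn-1(RNAi)* replicate 1 (0.0750) or 3 (0.130), adjusted p values from edgeR with Benjamini-Hochberg adjustment. *mp-2*, the other multiplexin, was at 32.1, 34.8, and 37.7 CPM against 32.6, 33.4, and 31.8 CPM, with overlapping conditions and a change of -0.10 on the log2 scale (adjusted p = 0.698, edgeR, Benjamini-Hochberg). The 12 contigs listed for *col4-6* and *col4-7* held 97 reads in all 6 libraries together, 2 of them had none, and none reached the filter, so nothing can be said of their change. Across both families, 4 of 5 measured type IV chains and 0 of 3 multiplexins were called lower, where 0.613% of all contigs were. The count for multiplexins is near that share, the difference between the families was not tested, and *mp-3* had an unadjusted p of 0.0454 (edgeR). The multiplexins also had fewer reads than the chains. Their log2 fold changes had standard errors of 0.0665 to 0.0871, against 0.0398 to 0.0555 for the chains, so the counts called are not compared at equal precision.

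**Figure D3:**
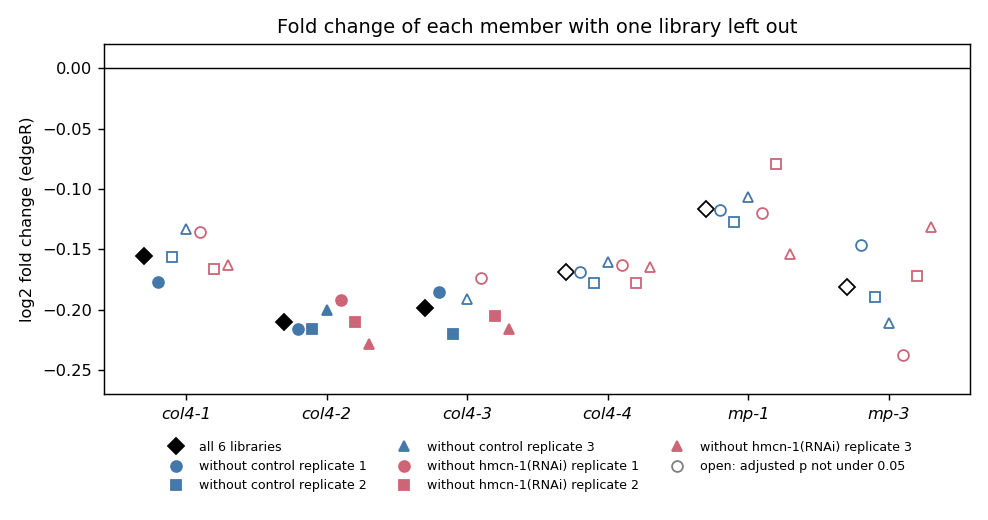
Log2 fold change (y axis) of each of the 6 members with all 6 libraries (black diamonds) and with 1 library left out (blue for control, red for *hmcn-1(RNAi)*), filled where the adjusted p was under 0.05 in edgeR. Every point lies below 0, *col4-2* is filled throughout, and *col4-4*, *mp-1*, and *mp-3* are open throughout.

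Over the 15 pairs of members, the log2 ratio within a library changed between conditions by 0.012 to 0.090 in size, and it left the conditions without overlap in 2 pairs, *col4-1* over *col4-2*, which was 0.056 higher in *hmcn-1(RNAi)* libraries, and *col4-2* over *mp-1*, which dropped by 0.090. No pair could pass a test here, since 3 libraries against 3 cannot give an exact permutation p below 0.1 (two-sided, 0.75 after Benjamini-Hochberg adjustment over the 15 pairs), so whether the members differ in their change is not settled. Among the reads of the 4 type IV members, *col4-1* made up 32.7%, 33.9%, and 33.9% in control and 34.2%, 34.4%, and 34.0% in *hmcn-1(RNAi)* libraries. The share of *col4-2* was 27.7%, 27.9%, and 27.6% in control and 27.2%, 26.97%, and 27.5% in *hmcn-1(RNAi)* libraries. These shares of *col4-1* and *col4-2* did not overlap between conditions, by less than 1 percentage point (exact permutation p = 0.1 for each, two-sided, the smallest possible), and those of *col4-3* and *col4-4* overlapped. With TMM scaling, the summed level of the 4 chains was 1569, 1561, and 1613 CPM in control and 1356, 1405, and 1416 CPM in *hmcn-1(RNAi)* libraries, a difference of -189 CPM.

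Beneath the shared difference the libraries of a condition were ordered differently for different members. Of the controls, replicate 3 was highest for *col4-1*, *col4-2*, *col4-4*, and *mp-1*, and replicate 1 for *col4-3* and *mp-3*. Of the *hmcn-1(RNAi)* libraries, replicate 1 was lowest for the 4 type IV chains and highest for *mp-3*, where replicate 3 was lowest, and *mp-1* was lowest in replicate 2.

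Transcripts of the other basement membrane proteins did not share this pattern as a list. Of 9 listed partners 8 were tested, 4 with a negative and 4 with a positive log2 fold change, at a median of 0.0031, and 0 were called (edgeR, against 1.13% called in either direction over all contigs), with 5 of them at an unadjusted p under 0.05 and 0 called in DESeq2 without its independent filter. The laminin chains, which form the second network of the sheet, had log2 fold changes from 0.040 to 0.15. *lamA* was at 99.7, 85.3, and 102 CPM in control and 99.9, 110, and 109 CPM in *hmcn-1(RNAi)* libraries, with a change of 0.15 on the log2 scale (adjusted p = 0.307, edgeR, Benjamini-Hochberg). *lamC* was at 66.8, 57.5, and 63.1 CPM against 65.0, 73.0, and 69.6 CPM, also at 0.15 (adjusted p = 0.346, edgeR, Benjamini-Hochberg). *lamB* was at 173, 151, and 167 CPM against 163, 180, and 162 CPM, at 0.040 (adjusted p = 0.849, edgeR, Benjamini-Hochberg), and turned to -0.016 and -0.0096 without control replicate 2 and without *hmcn-1(RNAi)* replicate 2. Without control replicate 2, *lamA* was at 0.075 and *lamC* at 0.095. In all 3 chains control replicate 2 was the lowest library, and the conditions overlapped.

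Of the linkers and proteoglycans, *nid* and *plc* had log2 fold changes within the range of the type IV chains. *nid*, the nidogen that bridges laminin and type IV collagen, was at 109, 115, and 106 CPM in control and 102, 93.6, and 99.3 CPM in *hmcn-1(RNAi)* libraries. It was the only tested partner whose conditions did not overlap, with a log2 fold change of -0.16 that was not called (adjusted p = 0.166, edgeR, Benjamini-Hochberg). The perlecan homolog *plc* was at 48.8, 50.01, and 50.5 CPM against 42.0, 51.9, and 39.3 CPM, where *hmcn-1(RNAi)* replicate 2 was the highest of all 6 libraries. Its log2 fold change was -0.17 (adjusted p = 0.439), and it rested on single libraries, at -0.30 and called without that library (adjusted p = 0.0421) and at -0.085 without *hmcn-1(RNAi)* replicate 3 (adjusted p = 0.815, edgeR, Benjamini-Hochberg). *agrin*, a heparan sulfate proteoglycan, was at 228, 246, and 241 CPM against 228, 228, and 227 CPM, at a change of -0.068 on the log2 scale (adjusted p = 0.616). *sparc*, whose vertebrate relatives bind collagen, was at 182, 212, and 217 CPM against 201, 195, and 202 CPM, at -0.034 (adjusted p = 0.879, both edgeR, Benjamini-Hochberg), and at 0.013 without control replicate 3. *phmus-1*, a perlecan-like gene of the pharynx, was at 6.67 to 8.08 CPM against 8.06 to 12.1 CPM, at 0.40 (adjusted p = 0.307, edgeR, Benjamini-Hochberg), and at 0.18 without *hmcn-1(RNAi)* replicate 3.

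**Figure D4:**
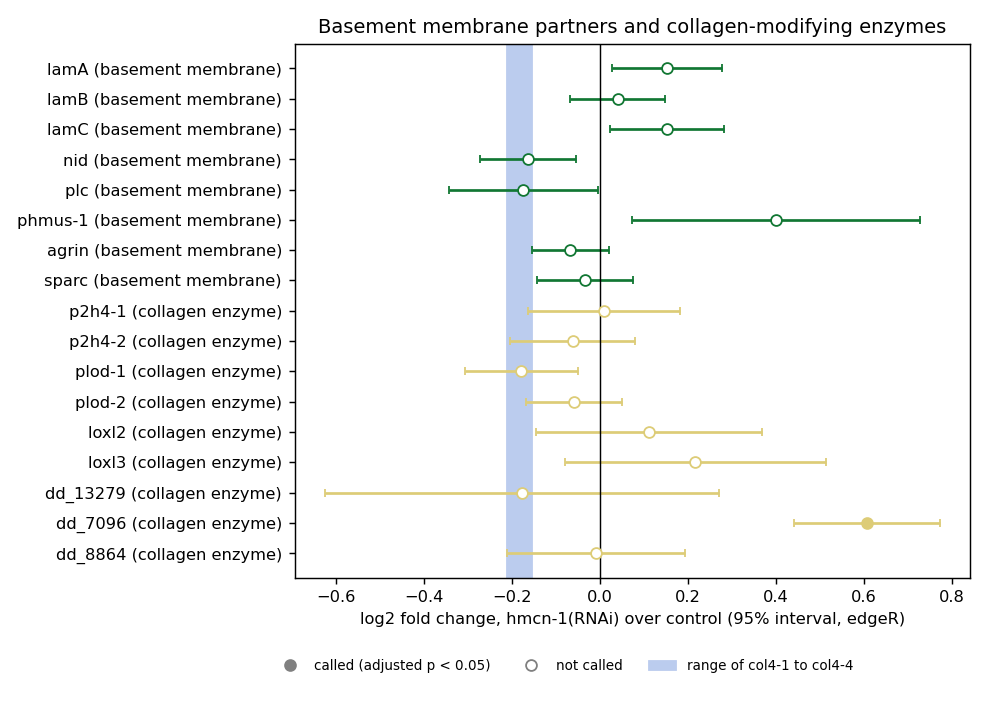
Log2 fold change of *hmcn-1(RNAi)* over control (x axis) with its 95% interval from edgeR for 8 basement membrane partners (green) and 9 collagen-modifying enzyme contigs (yellow), with filled points for called contigs and a blue band for the range of *col4-1* to *col4-4* (-0.21 to -0.16). The laminin chains lie to the right of 0 and of the band, *nid* and *plc* fall within it, and dd_7096 at 0.61 is the only filled point.

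The difference between transcripts of the type IV and the laminin chains was then taken within libraries, a comparison chosen after the values were seen. In the paper's single-cell data the laminin chains were expressed in intestinal cells, while collagen expression was specific to muscle. The ratio in whole tails thus spans transcripts of different cell types and does not measure the matrix itself. The mean log2 CPM of the 4 type IV members exceeded that of the 3 laminin chains by 1.80, 2.004, and 1.87 in the control libraries and by 1.63, 1.54, and 1.62 in the *hmcn-1(RNAi)* libraries. The conditions did not overlap, and the ratio dropped by 0.30 on the log2 scale (exact permutation p = 0.1, two-sided, the smallest possible with 3 against 3). Set against *nid*, the same mean stood at 1.75, 1.65, and 1.82 against 1.64, 1.80, and 1.73, with overlapping conditions (p = 0.7, same exact test).

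Among the enzymes that act on collagens, 1 of 9 contigs was called, where 1.13% of all contigs were called in either direction. Prolyl and lysyl hydroxylases modify collagen chains in the secretory pathway before the helix folds, and 0 of their 4 contigs were called. *plod-1*, a lysyl hydroxylase homolog, was at 64.9, 72.6, and 73.0 CPM in control and 57.7, 65.0, and 63.7 CPM in *hmcn-1(RNAi)* libraries, overlapping between conditions by a few hundredths of a CPM, with a change of -0.18 on the log2 scale (adjusted p = 0.224, edgeR, Benjamini-Hochberg). *plod-2* had a log2 fold change of -0.059, and the prolyl hydroxylase contigs *p2h4-1* and *p2h4-2* had 0.0091 and -0.062, with signs of both *p2h4* contigs that turned when 1 library was left out. Lysyl oxidases cross-link collagens outside the cell, and of their 5 contigs 1 was called, dd_7096, named for a LOXL2-like best match. It was at 24.8, 24.2, and 24.0 CPM in control and 37.1, 36.2, and 37.8 CPM in *hmcn-1(RNAi)* libraries, and rose with a change of 0.61 on the log2 scale (adjusted p = 1.52e-05, edgeR, Benjamini-Hochberg). The other 4 ranged in log2 fold change from -0.18 to 0.22.

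Matrix metalloproteases and integrin-type receptors, which cut or bind basement membrane collagens in other animals, had 0 of 7 tested contigs called, which is near the 1.13% of all contigs. The nearest was the membrane-type protease *mt-mmpA*, at 127, 137, and 136 CPM in control and 156, 148, and 147 CPM in *hmcn-1(RNAi)* libraries, with a change of 0.18 on the log2 scale (adjusted p = 0.0779, edgeR, Benjamini-Hochberg). The secreted proteases *mmp1* and *mmp2* varied most between controls, with control replicate 1 at 2690 CPM for *mmp1* and controls 2 and 3 at 1504 and 1259 CPM.

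The lower collagen level was seen beside a lower level of muscle transcripts. All 7 canonical muscle genes, which encode contractile proteins, had negative log2 fold changes, 4 were called, and their median was -0.22, where 0.613% of all contigs were called lower, or 1.52% of those at least as high as the lowest member. Their summed level was 8995 to 9550 CPM in control and 7965 to 8214 CPM in *hmcn-1(RNAi)* libraries. The 10 fibrillar collagen contigs were likewise all negative, with 5 called and a median of -0.15, although *colF-11* was near 0 and turned positive in 4 of the alternatives. In 5 of the 7 muscle genes and 7 of the 10 fibrillar contigs, every *hmcn-1(RNAi)* library lay below every control, as in the members. This share was 7.78% over all contigs and 10.6% among those at least as high as the lowest member. Of 19 markers of other cell types, none of which was at 0, 13 were negative and 6 positive, 2 were called, *ChAT* and *prog-2*, both lower, and the median was -0.070. Of these 19, 6 had all *hmcn-1(RNAi)* libraries below all controls and 1 had all above, against 7.78% and 7.81% of all contigs. Their summed level was 8995 to 9190 CPM in control and 8688 to 9863 CPM in *hmcn-1(RNAi)* libraries. A large part of this sum came from 1 parenchymal contig, dd_238. It was at 3554, 3431, and 3360 CPM in control and 3975, 4499, and 3502 CPM in *hmcn-1(RNAi)* libraries, so the sum does not describe the other markers. The part of muscle transcript level in the lower collagen values was not tested.

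Set against other genes of the same library, the difference of the collagens depended on the reference. With the median of the 7 muscle genes as reference, a choice made after the values were seen, the mean of the 4 chains was at -1.22, -1.20, and -1.16 in control and -1.24, -1.19, and -1.19 in *hmcn-1(RNAi)* libraries on the log2 scale. The conditions overlapped and differed by -0.013 (exact permutation p = 0.6, two-sided), and each of the 6 members overlapped as well, with differences from -0.040 to 0.049. Against the mean of the 10 fibrillar collagen contigs, the 4 chains together differed by -0.047 (p = 0.2, same exact test), and of the 6 members only *col4-2* did not overlap, at -0.075 (exact p = 0.1). Against the mean of the 7 muscle genes all 6 members moved upward, by 0.075 to 0.16, with *col4-1*, *col4-4*, and *mp-1* not overlapping at 0.13, 0.12, and 0.16 (exact p = 0.1 for each). That mean includes *titin-like*, which ran from 3.38 to 10.3 CPM among controls and 2.92 to 3.47 CPM among *hmcn-1(RNAi)* libraries, and it carries as much weight there as each of the other 6 genes.

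**Figure D5:**
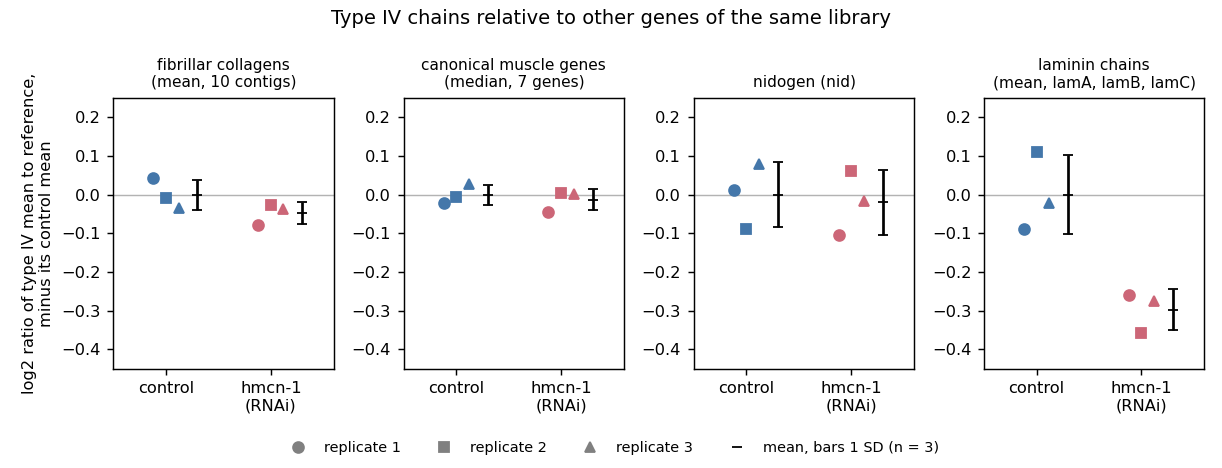
Log2 ratio of the mean of *col4-1* to *col4-4* to 4 references in the same library, each set to a control mean of 0 (y axis), for 3 control and 3 *hmcn-1(RNAi)* libraries with mean and 1 SD. The ratio to fibrillar collagens, to the median of the muscle genes, and to *nid* overlaps between conditions, and the ratio to the laminin chains lies 0.30 lower in *hmcn-1(RNAi)* libraries without overlap.

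Among 380 other contigs that the study's gene lists name and that had at least 100 reads on average, the pattern over the 6 libraries nearest to the type IV mean was that of *calponin*, an actin-binding protein of muscle. Likeness was measured as the root mean square difference of log2 CPM centred on the mean of all libraries, which was 0.0151 for *calponin* against a median of 0.121 over the candidates. The next were a contig named *FOXO4* (0.0188), the fibrillar collagens *colF-8* (0.0319) and *colF-6* (0.0375), and a contig named *REEP1* (0.0369). *calponin* was at 850, 834, and 841 CPM in control and 723, 746, and 751 CPM in *hmcn-1(RNAi)* libraries, and *hmcn-1(RNAi)* replicate 1 was its lowest library, as for the type IV chains. Nearest to *mp-1* were *colF-6* (0.0242), a contig named *TYMS* (0.0261), and *colF-7* (0.0264), which also had *hmcn-1(RNAi)* replicate 2 as their lowest library. Nearest to *mp-3* were *ANKR2* (0.0272), *TEAD4* (0.0547), and the semaphorin-like contig dd_13490 (0.0558), names again as given by the study. These distances describe 6 libraries that share the 2 conditions, and they carry no test. Since the contigs were picked by their values in these libraries, a shared lowest library is no further likeness.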

How the data were processed

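Poly(A) RNA from pooled tail fragments was made into stranded libraries and sequenced on Illumina HiSeq. The authors trimmed reads with cutadapt 1.8, mapped them with Bowtie 1.2.2 to the dd_Smed_v6 transcriptome and deposited raw counts per contig, which hold no normalization. No genome build is involved. They ran Bowtie with its best-alignment option and added up, with SAMtools 1.9, the reads of isotigs belonging to a contig. Use of the strand and the handling of reads with equally good matches in several contigs were not given in the sources used here. Closely related collagen contigs may share reads. The deposited table of the authors' own DESeq2 comparison, which holds means, fold changes and p-values, was not used.

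Counts were analysed in R 4.3.3 with edgeR 4.0.16: filtering by filterByExpr (minimum count 10), scaling by TMM, a robust quasi-likelihood test of condition without further terms, and Benjamini-Hochberg adjustment over the 15333 contigs kept, called at an adjusted p under 0.05. The standard error is the log2 fold change over the square root of F. Ratios within a library were taken on log2 CPM (prior count 1) and compared by exact permutation tests. The procedure was tested on simulated data with changes of 1.2-fold and more. The changes of the members were smaller, so that test does not cover them. Alternatives were other scaling factors, other filters, DESeq2 1.42.0, limma-voom (limma 3.58.1), a replicate term, glmTreat, and leaving out each library. Deviations of same-numbered libraries correlated only weakly, and the labels do not say whether the numbers mark a pairing. Tables and plots used Python 3.11.15, pandas 2.3.3 and matplotlib 3.10.9.

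Named contigs are the 6 members, their split contigs and relatives, called contigs of the partner, enzyme and protease lists with the laminins, *nid*, *plc*, *agrin*, *sparc* and hydroxylases, *hmcn-1*, and the nearest patterns. The members and lists were chosen with earlier results of these data known. Contig lengths and protein sequences were not used here.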

Additional observations from a re-analysis of the deposited data

How the results depend on the processing

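All 6 members stayed lower under each scaling, filter, tool and left-out library tried. The 3 called members became 4 with upper quartile factors or at least 100 counts in 3 libraries, since *col4-4* then passed (adjusted p = 0.0415 and 0.0443), and 0 against a change of 1.2-fold (glmTreat), where the log2 fold changes were -0.16 (*col4-1*), -0.21 (*col4-2*) and -0.20 (*col4-3*) and every adjusted p was 1. These fold changes were smaller than 1.2-fold, so glmTreat could not have called them. *col4-1* was lost with library totals only (-0.16, adjusted p = 0.0671) and in DESeq2 without independent filtering (-0.16, adjusted p = 0.214), and was called in the remaining 8 settings. DESeq2 with its independent filter gave *mp-1*, *mp-3* and dd_7096 no adjusted p, so 0 collagen enzymes were called there. Leaving out 1 library gave 1 to 3 members called and log2 fold changes from -0.18 to -0.13 (*col4-1*), -0.23 to -0.19 (*col4-2*), -0.22 to -0.17 (*col4-3*), -0.18 to -0.16 (*col4-4*), -0.15 to -0.08 (*mp-1*) and -0.24 to -0.13 (*mp-3*), with 1 member called without control replicate 3 or *hmcn-1(RNAi)* replicate 1. It gave 0 to 1 partners, 41 to 121 contigs lower and 31 to 134 higher.

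The background counts, lower and higher, were 147 and 192 with no filter on low counts, 41 and 25 in DESeq2 without independent filtering, 3 and 5 with glmTreat, 43 and 33 at an adjusted p under 0.01, and 143 and 135 at 0.10, with 50 higher in DESeq2. The members called were 2 and 4 at those thresholds. With the replicate number as a replicate block, 3 members, 144 contigs lower and 148 higher were called. Deviations of same-numbered libraries correlated only weakly (0.0259, 0.0843 and 0.0140), against -0.063 to 0.043 for different numbers. Not every library correlated best with its own number, and these values do not settle whether the numbers mark a pairing. The cause of these shifts was not tested.

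Relative to fibrillar collagens instead of the muscle mean, the log2 difference reversed to -0.019 (*col4-1*), -0.075 (*col4-2*), -0.063 (*col4-3*), -0.032 (*col4-4*) and -0.045 (*mp-3*). With the median of the muscle genes, added after seeing the data, it reversed to -0.040 (*col4-2*), -0.029 (*col4-3*) and -0.011 (*mp-3*). With 1 library left out, log2 fold changes that were not called crossed 0 for *lamB* (-0.016 to 0.078), *sparc* (-0.11 to 0.013), *p2h4-1* (-0.046 to 0.10), *p2h4-2* (-0.11 to 0.015), dd_8864 (-0.040 to 0.037) and *colF-11* (-0.067 to 0.087), and *colF-11* stood at 0.0043 with no filter and 0.0037 in limma-voom. Counting alone gives a spread of 6.45% for *mp-3*, and its part in the missing call was not tested. The exact tests cannot go below p = 0.1.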
